A study of Homo sapiens with 18 samples.

Results

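The MAF family holds basic leucine zipper transcription factors, proteins that bind DNA as pairs through a zipper of leucines. The genes described here were MAFA, MAF and NRL, which encode large MAF proteins with a domain that activates transcription, and MAFG, MAFK and MAFF, which encode small MAF proteins without one. They are the 6 of the 40184 Ensembl gene IDs in the deposited expression table that carry these symbols. MAFA was selected on its change in Molm-14 cells, the largest increase among the genes tested in that line, so its Molm-14 values are a description with no test. The other 5 genes were chosen by family and not by value.

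MAFA is best known as a regulator of the insulin gene in pancreatic beta cells, NRL as a determinant of rod photoreceptors, and MAF as a regulator in T helper cells, macrophages and myeloma. Small MAF proteins act as partners: with the cap'n'collar (CNC) factors, such as NFE2 and NRF2 (the product of NFE2L2), they activate genes of heme metabolism and of the oxidative stress response, and with BACH1 or BACH2 they repress them. Both kinds of MAF protein bind a Maf recognition element, an extended form of the AP-1 site. In blood cells the small MAF proteins are studied mainly for their part in the erythroid and megakaryocytic lineages.

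Polyadenylated RNA was sequenced from 3 human acute myeloid leukaemia cell lines, each given either DMSO, the vehicle, or the allosteric inhibitor of the phosphatase SHP2 named RMC-4550, at 500 nM for 24 h. Molm-14 and MV4-11 carry FLT3-ITD, an activating duplication within a receptor tyrosine kinase, and SKNO-1 carries KIT N822K, a mutation of another receptor tyrosine kinase. The medium of SKNO-1 alone held GM-CSF (10 ng/mL), so that line, mutation and growth factor cannot be told apart. The 6 groups of line and treatment had 3 replicates each, which the labels call biological. All cells are established lines, the drug was used at 1 dose and 1 time, and no group carried a MAF gene alteration named in the labels.

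Libraries held 17434810 to 19959917 reads. Levels are given in CPM, which divides a gene's reads by a library size that the authors scaled between samples. A gene is called where limma's adjusted p was under 0.05 over all genes tested. The share of reads from mitochondrial genes was 5.07% to 7.02% in 14 libraries and 10.5% to 15% in the other 4. These 4 were replicate 2 of Molm-14 with RMC-4550, replicates 1 and 3 of MV4-11 with DMSO and replicate 1 of MV4-11 with RMC-4550. PTPRC, CD33 and SPI1, myeloid or leukocyte genes, were above 34 CPM in all 18 libraries, while ANPEP stayed at or below 1.06 CPM and MPO at or below 4.40 CPM in every Molm-14 and MV4-11 library. Of the markers of other cell types, CD3D, CD3E, MS4A1 and EPCAM never exceeded 2 reads, HBB reached 19 reads in the Molm-14 library with 15% mitochondrial reads and had 3 or fewer elsewhere, and COL1A1 and PECAM1 were detected in each line. PTPN11, the gene of the drug's target, was measured in every library, at 80.2 to 251 CPM. With RMC-4550 its mean went from 242 to 125 CPM in Molm-14 and from 130 to 83.4 CPM in SKNO-1. Both falls were called (limma adjusted p = 0.0013 and 0.037). In MV4-11 the log2 change of PTPN11 was -0.30 and not called. It was -0.68 there without the libraries over 10% mitochondrial reads, which leaves 1 DMSO library. The level of this transcript does not report on inhibition of the protein.

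MAFA was close to absent in all 3 untreated lines. In the DMSO libraries of Molm-14 it had 4, 1 and 4 reads, which are 0.222, 0.0577 and 0.223 CPM. In the RMC-4550 libraries of Molm-14 it had 292, 171 and 291 reads, or 16.0, 11.0 and 16.5 CPM. All treated libraries thus lay far above all untreated ones, and the lowest treated value belonged to replicate 2, the library with 15% mitochondrial reads. The means were 0.168 ± 0.095 and 14.5 ± 3.04 CPM (SD, n = 3 each). The log2 difference was 6.34, and 6.53 without replicate 2. It was rank 1 among the 13971 genes tested in Molm-14, which is the value by which the family was chosen. The summed reads, 754 against 9, gave a ratio of 86.5 with an exact 95% interval of 45.3 to 190 that covers counting error only. Because few reads stand behind the untreated mean, the size of the fold depends on the offset: with 1 CPM added before the logarithm the difference was 3.71.

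In MV4-11, whose values played no part in choosing the gene, MAFA also rose. The DMSO libraries held 3, 6 and 9 reads (0.161, 0.307 and 0.539 CPM) and the RMC-4550 libraries 88, 82 and 103 reads (4.65, 4.15 and 5.23 CPM). The groups did not overlap, and the mean went from 0.336 ± 0.190 to 4.68 ± 0.539 CPM (SD, n = 3 each). The log2 change was 3.83 (SE 0.49, 95% interval 2.78 to 4.88; limma adjusted p = 7.24e-05), rank 12 from the highest among 14739 genes tested. MAFA passed the filter on low values in MV4-11 only through its treated libraries. The adjusted p was 9.71e-05 with no filter at all, and it stayed at or under 0.0055 under each alternative in which MAFA was tested. The summed reads, 273 against 18, gave a ratio of 14.2 (exact 95% interval 8.84 to 24.4). Within the libraries under 10% mitochondrial reads the log2 difference was 3.82 (1 DMSO and 2 RMC-4550 libraries), and within those over 10% it was 3.84 (2 and 1), values with no test.

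In SKNO-1, MAFA did not leave its low level. The DMSO libraries held 3, 4 and 1 reads and the RMC-4550 libraries 2, 2 and 4, so that the groups overlapped and the means were 0.123 ± 0.070 and 0.123 ± 0.053 CPM (SD, n = 3 each). The ratio of summed reads, 8 against 8, was 0.997, with an exact interval of 0.326 to 3.05, so a change of up to about that size in either direction was not detectable at this depth. MAFA was below the filter in this line and was not tested there. To compare the lines, the filter within the line was dropped, a choice made after seeing the data. The response of SKNO-1 was then 3.75 lower than that of MV4-11 on the log2 scale (fitted difference -3.75, SE 0.70, 95% interval -5.24 to -2.27; adjusted p = 0.0095 over 16262 genes). With no filter on any gene the adjusted p was 0.0164, and leaving out each library in turn gave differences of -4.21 to -3.35 with adjusted p-values of 0.00675 to 0.0334. The treated level in Molm-14 was above that in MV4-11 with no overlap, which is part of the rise that chose the gene and was not tested.

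**Figure D1:**
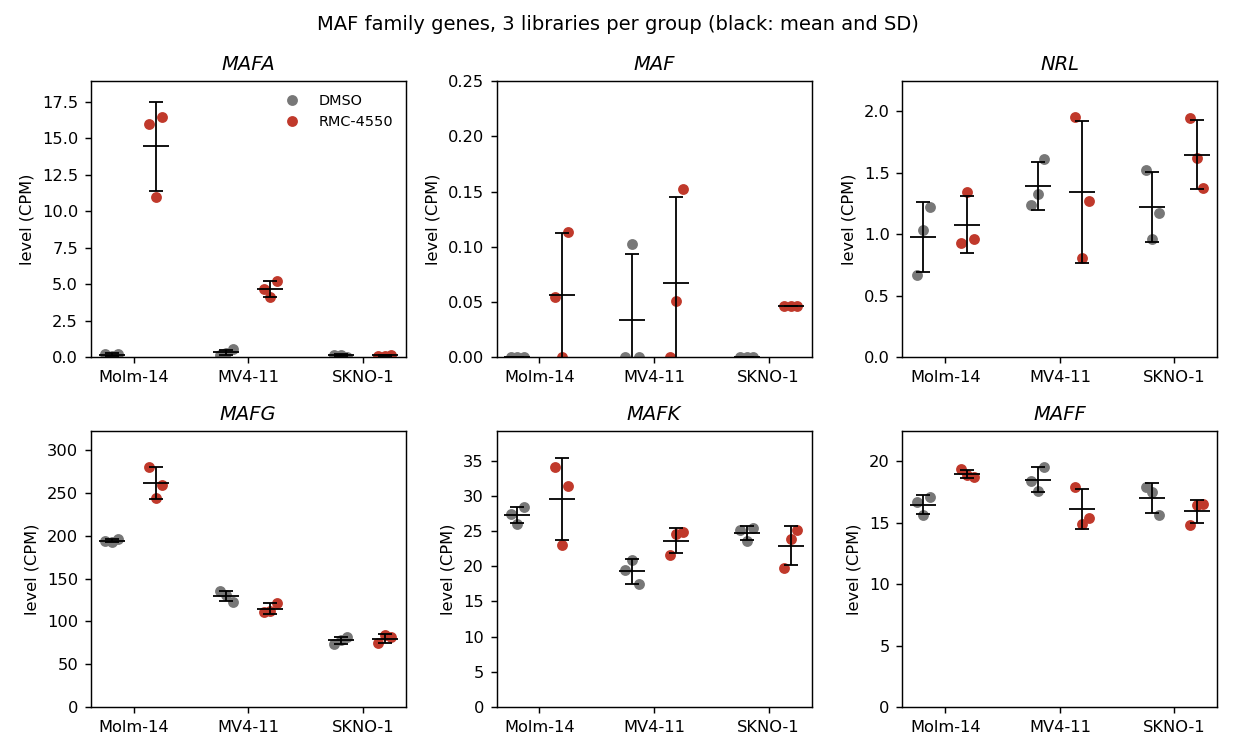
Level of each of the 6 genes in CPM (linear axis from 0, own scale per panel) in the 3 DMSO (grey) and 3 RMC-4550 (red) libraries of each cell line, with mean and SD in black. MAFA reaches 11.0 to 16.5 CPM in treated Molm-14 and 4.15 to 5.23 CPM in treated MV4-11 and stays under 0.6 CPM elsewhere, MAF never exceeds 0.152 CPM (3 reads), and MAFG is the highest member in every library.

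MAFA lies on the minus strand of chromosome 8, at 143419182 to 143430406 in GRCh38 (GENCODE 29), and its exons share no bases with those of another annotated gene. None of the 50-base words of its transcripts occurs in a transcript of another gene, so its reads cannot come from a relative by way of an identical stretch of that length. Its antisense transcript MAFA-AS1 had 15 reads or fewer in any library and did not enter the fit. Among the 10 nearest genes of the fit, up to 142 kb away, 6 were higher and 1 was lower of 9 tested with RMC-4550 in Molm-14 (changes from -0.19 to 1.21), against 46.7% of all genes called in that line. In MV4-11, where 13.9% of genes were called, limma called 0 of 10 (changes from -0.48 to 0.87, lowest adjusted p 0.17), while 1 had an unadjusted p under the threshold and 1 was called with voom weights. In SKNO-1, where 27.1% were called, 2 of 10 were higher.

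Of 12 genes that MAFA is known to regulate or work beside in beta cells, 6 were measured, and none of these reached the filter in any line. PDX1, a pancreatic master regulator, had at most 1 read in a library. The homeobox genes PAX6 and NKX6-1 had low levels, PAX6 of 0.509 to 1.00 CPM in the Molm-14 libraries (at most 18 reads) and NKX6-1 of 0.323 to 0.706 CPM in the SKNO-1 libraries (at most 15 reads). For the other 6, among them the insulin gene INS, no row was found in the deposited expression table.

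By Pearson correlation of log2 values over the 18 libraries, the genes most like MAFA among 16261 were MLXIP (r = 0.95), ING5 (0.91), FCGR2C (0.91), FCGR2A (0.90) and CYP2W1 (0.89). These points share 3 lines and 2 treatments and are not independent. MLXIP, a glucose-responsive transcription factor, was at 181, 182 and 187 CPM in DMSO and 328, 373 and 323 CPM in RMC-4550 libraries of Molm-14. It was at 206, 177 and 201 and then 282, 260 and 275 CPM in MV4-11, and at 152, 155 and 157 and then 160, 189 and 177 CPM in SKNO-1. FCGR2A and FCGR2C encode Fc receptors of myeloid cells and share near-identical stretches of sequence. Reads may therefore be split between related genes, and their values are uncertain.

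MAF was at or under 3 reads in each of the 18 libraries. All 3 DMSO libraries of Molm-14 and of SKNO-1 had 0 reads, and the highest count was 3, in replicate 3 of MV4-11 with RMC-4550. No group reached the filter and no test was made in any line. A count of 0 allows up to 3 reads in a library, so the level was below what this depth resolves in each line.

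NRL was detected at a low level in every library and was called in no comparison. It lay at 0.667 to 1.23 CPM with DMSO and 0.929 to 1.35 CPM with RMC-4550 in Molm-14. The ranges were 1.24 to 1.62 and 0.81 to 1.95 CPM in MV4-11 and 0.964 to 1.52 and 1.38 to 1.94 CPM in SKNO-1. Groups overlapped in all 3 lines, and the log2 changes were 0.16, -0.13 and 0.44 (SE 0.31 each; adjusted p = 0.69, 0.83 and 0.33). With 12 to 42 reads a library, these intervals reach from -0.80 to 1.10. Of 6 photoreceptor genes tied to NRL, 5 did not reach the filter. The remaining one was ROM1, a disc membrane protein. In Molm-14 it was at 0.668 to 0.923 CPM with DMSO and at 1.80 to 1.92 CPM with RMC-4550 (log2 difference 1.20). ROM1 passed the filter in Molm-14 only through its treated libraries, so these values are a description. It was not called in the other lines. Without the 4 libraries over 10% mitochondrial reads, ROM1 was called higher in SKNO-1 (0.44, limma adjusted p = 0.0498), where 53.3% of all genes were called.

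MAFG was the most abundant member. Its treated and untreated libraries did not overlap in Molm-14, and the share of all genes without overlap was not computed for any line. Its DMSO libraries of Molm-14 were at 194, 192 and 196 CPM and its RMC-4550 libraries at 281, 244 and 260 CPM. The lowest treated library was above the highest untreated one, and the means were 194 ± 1.91 and 262 ± 18.3 CPM (SD, n = 3 each). MAFG rose by 0.43 on the log2 scale (SE 0.077, adjusted p = 0.00032). Of the 4 members tested in Molm-14, MAFG was the 1 called, in a line where 46.7% of genes were called, 21.5% higher and 25.2% lower; MAFF was called as well under the 2 other scalings tried. The change was 0.48 without replicate 2, the library high in mitochondrial reads.

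In MV4-11 and SKNO-1 no change of MAFG was called. Of the 5 members tested in MV4-11, MAFA was the 1 called (13.9% of genes called, 5.85% higher and 8.03% lower). An unadjusted p under the threshold was found for 4, MAFA among them. The share of all genes with such a p was not computed. The MV4-11 libraries were at 135, 131 and 123 CPM with DMSO and at 111, 112 and 122 CPM with RMC-4550. These groups did not overlap, the treated ones being lower, and the log2 difference was -0.18 (SE 0.077, adjusted p = 0.15). With the mitochondrial share as a covariate MAFG was called lower in MV4-11 (-0.22, adjusted p = 0.011). The SKNO-1 libraries were at 73.4, 77.8 and 82.3 CPM and at 74.4, 83.9 and 81.2 CPM, overlapping, with a difference of 0.04 (95% interval -0.13 to 0.20; adjusted p = 0.78). In SKNO-1, where 27.1% of genes were called, 10.8% higher and 16.2% lower, limma called 0 of the 4 members tested, 0 also had an unadjusted p under the threshold, and 0 were called with voom weights.

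The response of MAFG differed between the lines. It was lower in MV4-11 than in Molm-14 by a log2 difference of -0.60 (SE 0.11, adjusted p = 0.0019), where 19.5% of genes had a called difference of responses (9.12% higher, 10.3% lower). It was lower in SKNO-1 than in Molm-14 by -0.39 (SE 0.11, adjusted p = 0.029), where 10.9% did (4.14% higher, 6.73% lower). This second call was lost without any of 8 single libraries in turn (differences then -0.41 to -0.34, adjusted p = 0.054 to 0.086). Both differences use the same Molm-14 libraries. Between SKNO-1 and MV4-11, where 1.66% of genes were called (0.482% higher, 1.17% lower), the difference was 0.21 (95% interval -0.02 to 0.44; adjusted p = 0.45). Of the 4 members tested there limma called 0 and voom weights gave 0, while 1, MAFK, had an unadjusted p under the threshold.

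The untreated level of MAFG also set the lines apart. It was lower in MV4-11 than in Molm-14 by a log2 difference of -0.58 (adjusted p = 1.1e-05). It was lower in SKNO-1 than in Molm-14 by -1.32 (adjusted p = 2.3e-10) and lower in SKNO-1 than in MV4-11 by -0.74 (adjusted p = 1.3e-06; SE 0.077 each). Untreated levels differed widely between the lines in general: 54.2% of all genes tested were called in the first comparison (25.1% higher, 29.1% lower), 65.3% in the second (31.8% and 33.6%) and 42.5% in the third (20.1% and 22.4%). Of the 4 members tested, 2, 1 and 2 were called. In bulk RNA, fewer cells expressing a gene and less RNA per cell cannot be told apart.

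MAFG lies on the minus strand of chromosome 17 at 81918270 to 81927714, and 6.30% of its exonic bases are shared with SIRT7 or the antisense gene AC145207.8. The 250 bases before the RefSeq start of MAFG (GRCh38.p14, minus strand, chr17:81927736-81927985) are shown because it is the member with most transcript in all lines, beside those before MAF (minus strand, chr16:79600738-79600987), the member with none or almost none.

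MAFG: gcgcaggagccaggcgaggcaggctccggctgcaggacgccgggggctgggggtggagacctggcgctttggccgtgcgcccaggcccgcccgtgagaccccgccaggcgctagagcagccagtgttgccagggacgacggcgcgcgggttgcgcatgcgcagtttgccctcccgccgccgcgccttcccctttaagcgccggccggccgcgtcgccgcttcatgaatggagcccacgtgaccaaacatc

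MAF: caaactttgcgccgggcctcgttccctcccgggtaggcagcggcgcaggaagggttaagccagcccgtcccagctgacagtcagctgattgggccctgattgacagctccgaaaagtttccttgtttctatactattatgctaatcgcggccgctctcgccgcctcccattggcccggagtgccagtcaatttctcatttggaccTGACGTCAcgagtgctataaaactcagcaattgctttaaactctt

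Capitals mark the one match found to 4 motifs searched on both strands: the Maf half-site TGCTGAC, the TRE core TGACTCA, the CRE core TGACGTCA and the antioxidant response element core TGACNNNGC. The match is to the CRE core, in the MAF window. None of the 4 was found in the MAFG window, which says only that these letters are not in it. Among 35116 RefSeq windows of the same length, 3.43% held the half-site, 4.2% the TRE core, 1.65% the CRE core and 10.9% the antioxidant core. The MAFG window was 73.2% G and C, with 31 CG pairs, and the MAF window 54.4% with 16, against medians of 58% and 11 over all windows. No binding or chromatin data bear on either window here.

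MAFG-DT, a transcript divergent from MAFG whose annotated start lies inside the MAFG window shown, had at most 71 reads in a library. It was at 2.08, 2.43 and 2.59 CPM with DMSO and at 1.16, 0.881 and 1.2 CPM with RMC-4550 in SKNO-1, where MAFG itself was not called. It fell there by 1.12 on the log2 scale (SE 0.18, adjusted p = 0.00022). The differences were -0.30 (adjusted p = 0.18) in Molm-14 and 0.08 (adjusted p = 0.81) in MV4-11. The fall in SKNO-1 differed from the response of MV4-11 (difference -1.21, SE 0.25, adjusted p = 0.019).

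MAFK was measured at 17.4 to 34.2 CPM and was called with RMC-4550 in none of the lines. Molm-14 libraries were at 27.4, 26.1 and 28.4 CPM with DMSO and 34.2, 23 and 31.4 CPM with RMC-4550; the low treated value is again replicate 2, with 15% mitochondrial reads. The log2 difference in Molm-14 was 0.09 (SE 0.13, adjusted p = 0.58), and 0.26 with adjusted p = 0.020 when the 4 libraries over 10% mitochondrial reads were left out. Without replicate 2 alone it was 0.26 with adjusted p = 0.076. MV4-11 libraries were at 19.5, 21 and 17.4 CPM and then 21.5, 24.6 and 24.8 CPM, without overlap, and the difference was 0.29 (adjusted p = 0.18); with quantile normalization it was called (0.35, adjusted p = 0.044).

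SKNO-1 libraries were at 25.1, 23.5 and 25.5 CPM of MAFK and then 19.8, 23.8 and 25.1 CPM, overlapping (difference -0.11, adjusted p = 0.58). The untreated level was lower in MV4-11 than in Molm-14 (difference -0.50, SE 0.13, adjusted p = 0.0049). It was higher in SKNO-1 than in MV4-11 (0.36, adjusted p = 0.040), a call that was lost without any of 5 of the 6 single libraries in turn (differences 0.29 to 0.39, adjusted p = 0.062 to 0.16). MAFK lies on the plus strand of chromosome 7 at 1530714 to 1543043. TMEM184A on the opposite strand shares 18.2% of its exonic bases, and since the counting is not stated to use strand, reads of the pair may be mixed.

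MAFF had nearly the same level everywhere, 14.9 to 19.6 CPM over the 18 libraries. In Molm-14 the DMSO libraries were at 16.7, 15.6 and 17.1 CPM and the RMC-4550 libraries at 19.3, 18.9 and 18.7 CPM. The groups did not overlap, but the log2 difference of 0.20 was not called (SE 0.095, adjusted p = 0.087) at the authors' scaling; it was 0.25 (adjusted p = 0.042) with median-ratio scaling and 0.32 (adjusted p = 0.028) with quantile normalization. In MV4-11 the libraries were at 18.4, 17.6 and 19.6 CPM and then 18, 14.9 and 15.4 CPM (difference -0.20, adjusted p = 0.18). In SKNO-1 they were at 17.9, 17.5 and 15.6 CPM and then 14.9, 16.4 and 16.6 CPM (difference -0.09, adjusted p = 0.52).

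The response of MAFF was lower in MV4-11 than in Molm-14 (difference -0.41, SE 0.13, adjusted p = 0.043). That call was lost without any of 10 of the 12 single libraries in turn, where the difference ranged from -0.44 to -0.36 and the adjusted p from 0.054 to 0.11. MAFF lies on the plus strand of chromosome 22 at 38200767 to 38216511, MAF on the minus strand of chromosome 16 at 79585843 to 79600714 and NRL on the minus strand of chromosome 14 at 24080107 to 24115014. No 50-base word is shared between transcripts of any pair of the 6 genes.

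**Figure D2:**
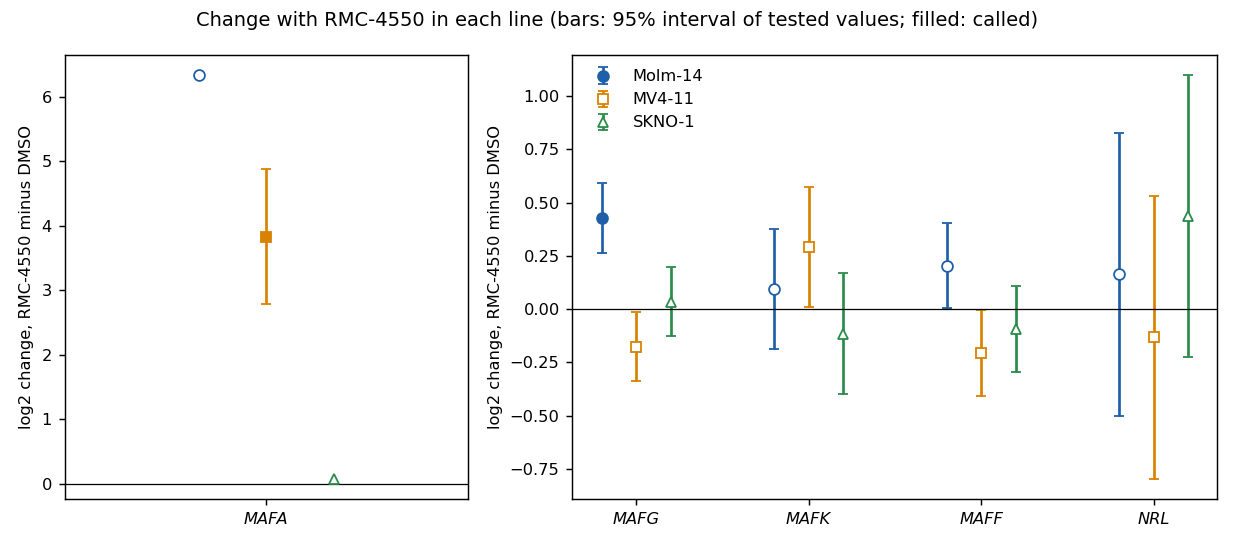
Log2 change with RMC-4550 for MAFA (left) and for MAFG, MAFK, MAFF and NRL (right, other scale) in each line, from 1 limma fit of 18 libraries; bars are 95% intervals, filled symbols were called, and MAFA in Molm-14 (6.34) and SKNO-1 (0.08) has no bar because it was not tested. MAFA in MV4-11 (3.83) and MAFG in Molm-14 (0.43) are the filled points; under quantile normalization MAFF and MAFK in SKNO-1 moved to the other side of 0, and so did NRL in Molm-14.

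Levels of different genes were compared per kilobase of the longest transcript, in CPM per kb. In untreated Molm-14 the order was MAFG at 38.6, MAFK at 8.11, MAFF at 5.02, NRL at 0.464 and MAFA at 0.0714. With RMC-4550 in Molm-14 MAFA reached 6.16 ± 1.30 CPM per kb, next to MAFK at 8.77 ± 1.73 and MAFF at 5.78 ± 0.0988 (SD, n = 3 each), with which its range overlapped, and below MAFG at 51.9 ± 3.63. In treated MV4-11 MAFA reached 1.99 ± 0.229, between NRL at 0.639 ± 0.274 and MAFF at 4.90 ± 0.494. In SKNO-1 it was the lowest of the 5 detected genes under both conditions, at 0.0524 CPM per kb.

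**Figure D3:**
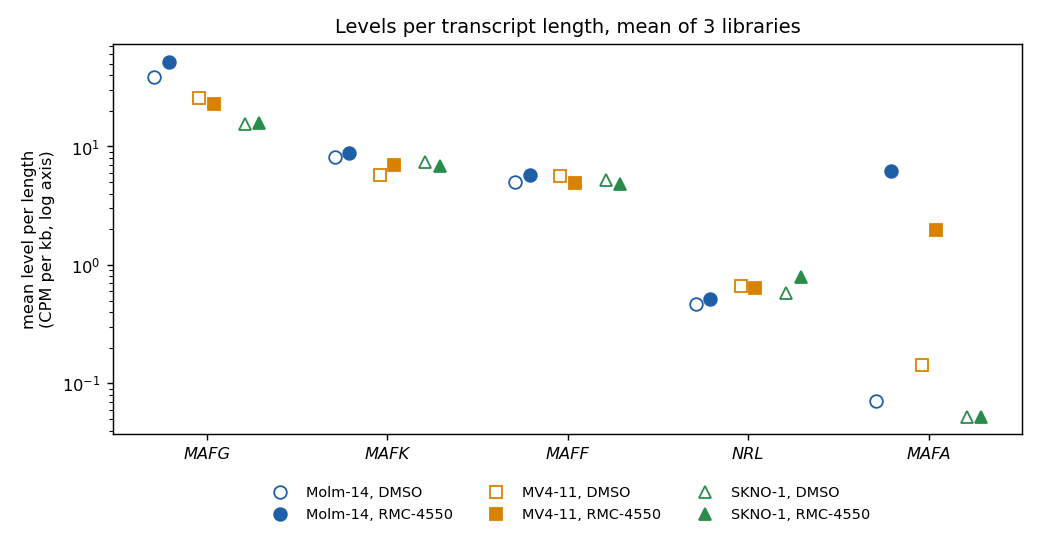
Mean level per transcript length (CPM per kb of the longest GENCODE 29 transcript, log axis) of the 5 detected members in each group, open for DMSO and filled for RMC-4550. MAFA moves from below NRL to the range of MAFK and MAFF in Molm-14 (0.0714 to 6.16) and stays lowest in SKNO-1, while the small MAF genes keep their order, with MAFG at 15.4 to 51.9.

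Across the groups, MAFG kept a strict order: treated Molm-14, untreated Molm-14, untreated MV4-11 and treated MV4-11 each held libraries above all those of the next, and only the SKNO-1 groups overlapped. For MAFF and NRL every neighbour in the order of group means overlapped with the next. MAFK separated only between untreated Molm-14 and untreated SKNO-1 along its order. How many of all genes keep such an order was not computed. The genes most like MAFG over the 18 libraries were MOSPD2, ARHGEF11 and BCL7A (r = 0.98 each), those most like MAFK were TOM1 (0.92), SQSTM1 (0.91) and AHCYL2 (0.91), those most like MAFF were SNHG30 (0.80), MICALL2 (0.79) and RGCC (0.79), and those most like NRL included ZCCHC7 (0.80) and LRRC37BP1 (0.78).

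Among the dimer partners of the small MAF proteins, NFE2 stood out by rising in each line. Of 7 partner genes, CNC factors, BACH factors and the NRF2 inhibitor KEAP1, 5 were tested in Molm-14 and 6 in each of MV4-11 and SKNO-1, and NFE2 was the 1 called, higher, each time (46.7%, 13.9% and 27.1% of all genes called). NFE2, the CNC subunit of the erythroid and megakaryocytic factor NF-E2, was at 66.2, 69.5 and 73.4 CPM and then 125, 102 and 118 CPM in Molm-14. It was at 40.1, 43.8 and 41.5 CPM and then 68.1, 66.3 and 69.6 CPM in MV4-11, and at 23.8, 22.5 and 22.6 CPM and then 53.9, 58.6 and 54.1 CPM in SKNO-1. No line's groups overlapped, and the untreated order of the lines was that of MAFG. The log2 changes were 0.72, 0.70 and 1.27 (SE 0.081 each; adjusted p = 3.8e-06, 2.5e-05 and 2.3e-08).

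The rise of NFE2 was larger in SKNO-1 than in Molm-14 (difference 0.55, SE 0.11, adjusted p = 0.0051) and than in MV4-11 (0.57, SE 0.11, adjusted p = 0.013). The other partners were not called. Without the 4 libraries over 10% mitochondrial reads, an alternative chosen after seeing the data, 2 partners were higher and 2 lower in Molm-14 (59% of all genes called), 1 was higher and 1 lower in MV4-11 (26.9%) and 1 was higher in SKNO-1 (53.3%), NFE2 being higher in each line. That subset leaves 1 DMSO and 2 RMC-4550 libraries of MV4-11, so each of its MV4-11 tests takes the spread from the other groups and assumes that the lone library varies like them. NFE2L2, which encodes NRF2, had differences of -0.45, 0.25 and -0.01 (SE 0.24 each), and its levels of 49.0 CPM in replicate 2 of treated Molm-14 and 63.7 to 79.8 CPM in the 3 MV4-11 libraries over 10% mitochondrial reads were below the 93.5 to 132 CPM of all other libraries. BACH1 showed the same split, at 21.5 to 28.5 CPM in those 4 libraries and at 36.2 to 61.8 CPM in the others. Without those 4 libraries NFE2L2 was lower in Molm-14 (-0.14, adjusted p = 0.035) and in MV4-11 (-0.21, adjusted p = 0.043, 1 DMSO library against 2). BACH2 had at most 1 read in a library.

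Genes known as targets of NRF2 with small MAF proteins moved in both directions. Of 18 such genes, 17 were tested in each line. In Molm-14, 4 were higher and 6 lower (46.7% of all genes called, median of the list -0.24 against -0.06 for all genes). In MV4-11, 3 were higher and 3 lower (13.9% called, medians 0.24 and -0.01), and in SKNO-1, 3 were higher and 1 lower (27.1% called, medians -0.05 and -0.05). Without the 4 libraries over 10% mitochondrial reads the counts were 6 higher and 5 lower in Molm-14, 2 higher and 5 lower in MV4-11, and 4 higher and 6 lower in SKNO-1, where 59%, 26.9% and 53.3% of all genes were called. Of these genes, 9, 5 and 4 had the same call with all libraries.

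HMOX1, heme oxygenase and a target of both activation by NRF2 and repression by BACH1, rose in all 3 lines. It went from 6.45 to 7.55 CPM up to 29.8 to 35.3 CPM in Molm-14, from 4.25 to 4.61 up to 10.5 to 12.6 CPM in MV4-11, and from 3.37 to 4.47 up to 8.74 to 9.97 CPM in SKNO-1. The log2 changes were 2.24, 1.37 and 1.23 (SE 0.13 each; adjusted p = 4.2e-09, 2.4e-06 and 2.8e-06), and the rise in Molm-14 was the larger one against MV4-11 (difference -0.87, adjusted p = 0.0042) and against SKNO-1 (difference -1.01, adjusted p = 0.0017). BLVRB, biliverdin reductase B, rose too, by 0.58, 0.39 and 0.72. NQO1, a quinone reductase often used as a readout of NRF2, fell in each line, with log2 changes of -0.34, -0.45 and -0.72 (adjusted p = 0.033, 0.022 and 0.00037). The fall of NQO1 in Molm-14 was no longer called without those 4 libraries (-0.25, adjusted p = 0.076).

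Other targets were called in fewer lines. SLC7A11, the cystine transporter, fell by 0.54 in Molm-14 and by 0.64 in MV4-11 on the log2 scale (adjusted p = 0.0053 and 0.0063). TXNRD1, thioredoxin reductase, fell by 0.72 on the log2 scale in Molm-14 (adjusted p = 0.013), where replicate 2 was lowest at 58.3 CPM and the other treated libraries were at 104 and 105 CPM; without the 4 libraries it was called lower in each line, with changes of -0.44, -0.29 and -0.23 (adjusted p = 6.2e-06, 0.010 and 0.0011; 1 DMSO library against 2 in MV4-11). GCLC and GCLM, the subunits of the enzyme that starts glutathione synthesis, were called in no line, with values from -0.48 to 0.24; without the 4 libraries GCLC was higher in Molm-14 (0.35, adjusted p = 0.022) and lower in SKNO-1 (-0.48, adjusted p = 0.0015).

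**Figure D4:**
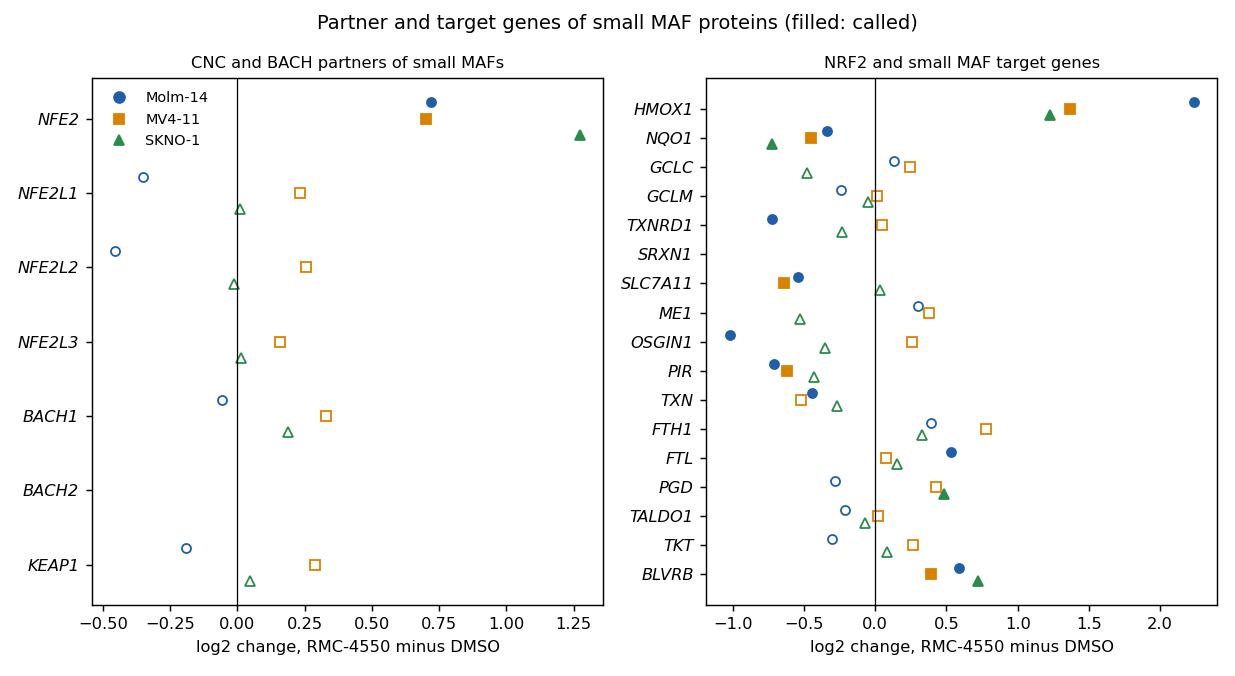
Log2 change with RMC-4550 in Molm-14 (circles), MV4-11 (squares) and SKNO-1 (triangles) of dimer partners of small MAF proteins (left) and of target genes they share with NRF2 (right, not the whole list); filled symbols were called and genes below the filter in a line have no symbol there. NFE2 lies at 0.70 to 1.27 and HMOX1 at 1.23 to 2.24, filled in every line, while NQO1 lies below 0 in every line.

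MAF itself was at the floor, and the genes tied to it in other cells are given for that reason. Of 4 genes induced by MAF in myeloma, all were tested in each line: 0 were higher and 2 lower in Molm-14, 2 higher and 1 lower in MV4-11, and 1 higher and 1 lower in SKNO-1 (46.7%, 13.9% and 27.1% of all genes called). Without the 4 libraries over 10% mitochondrial reads they were 1 higher and 2 lower, 2 higher and 1 lower, and 2 higher and 2 lower (59%, 26.9% and 53.3% called). CCND2, cyclin D2, fell in each line, with log2 changes of -0.80, -0.36 and -0.47 (adjusted p = 1.1e-06, 0.0063 and 0.00039). CCR1, a chemokine receptor, fell in Molm-14 by 0.34 on the log2 scale (adjusted p = 0.0042) and rose in MV4-11 by 0.36 (adjusted p = 0.0086), a difference of responses of 0.70 (SE 0.12, adjusted p = 0.0014). For ITGB7, an integrin subunit, the changes of 0.99 in MV4-11 and 1.31 in SKNO-1 were called (adjusted p = 0.040 and 0.0043). In MV4-11 ITGB7 was lowest, at 14 to 26 CPM, in the 3 libraries over 10% mitochondrial reads, which lie in both groups. Without them its change there was 0.53 (adjusted p = 0.0069, 1 DMSO library against 2). In Molm-14 the difference of 0.68 was not called (adjusted p = 0.079), and without replicate 2 and the other libraries over 10% ITGB7 was called higher there too (0.94, adjusted p = 4.4e-07).

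Of 7 macrophage genes tied to MAF, only CSF1R, the M-CSF receptor, was tested in all 3 lines. It rose from 10.2 to 14.7 CPM up to 55.2 to 78.1 CPM in Molm-14, from 49.4 to 69.6 up to 103 to 148 CPM in MV4-11, and from 128 to 136 up to 260 to 294 CPM in SKNO-1. The log2 changes were 2.47, 1.20 and 1.06 (SE 0.17 each; adjusted p = 3.3e-08, 0.00019 and 0.00025). C1QA and C1QC, complement subunits, passed the filter in SKNO-1 alone. They did so only through the treated libraries, so their values there are a description. C1QA was at 0.369, 0.918 and 0.989 CPM and then 3.38, 3.48 and 2.44 CPM there, while C1QA and C1QC both had 0 reads in all Molm-14 libraries. LINC01229, a noncoding gene beside MAF, rose in SKNO-1 (1.29, SE 0.29, adjusted p = 0.0031). In MV4-11 it was at 0.538, 1.13 and 0.778 CPM with DMSO and at 1.74, 1.27 and 2.03 CPM with RMC-4550. LINC01229 passed the filter in MV4-11 through its treated libraries, so the log2 difference of 1.05 there is a description. Without the libraries over 10% mitochondrial reads that difference was 0.50 (1 DMSO library against 2). Its levels were 0.538 to 3.70 CPM over those lines, with MAF at the floor in the same libraries.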

How the data were processed

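The authors deposited 1 table of log2 values for 40184 gene IDs in 18 libraries. Per the submitters' processing notes, FastQC, STAR, limma and GRCh38 were used; the counter, annotation, strand setting and filters are not given in the sources used here. The values had the form of log2 CPM, with 0.5 added to the reads and library sizes scaled by factors of 0.890 to 1.11: undoing it gave whole reads, within 0.02, for 100% of values under 20 reads. CPM were computed from those reads; intervals and floors (3 reads) cover counting error only. The deposited log2 values were tested with limma 3.58.1 (lmFit, eBayes with a trend, two-sided, R 4.3.3) in 1 fit of 18 libraries, 1 coefficient per group. Genes needed 1 CPM in 3 libraries (16262 genes) and again in 3 libraries of each line tested; 5 of the 6 members were in the fit, and the lines Molm-14, MV4-11 and SKNO-1 kept 5, 5 and 4 of them. A gene was called at a Benjamini-Hochberg adjusted p under 0.05 over all genes tested. The fit was tested on simulated data. The members and gene lists were chosen with earlier results of these data known. All members are named; from each list, up to 3 called genes per line with the largest change and a mean of at least 5 CPM, other genes being named after their values were seen. Sequences are from RefSeq (GRCh38.p14), which held both promoters shown; annotation is GENCODE 29, and MAFG-DT was matched by its GENCODE name. Alternatives were other offsets, filters, scalings, fits, voom weights, mitochondrial share and single libraries left out; dropping the filter within the line, and counting list genes without libraries over 10% mitochondrial reads, were added after seeing the data. Some genes counted in the lists are not reported here by name.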

Additional observations from a re-analysis of the deposited data

Results flagged for a closer look

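The change with RMC-4550 differed between lines, by limma's test of the difference of responses, for MAFG and MAFF. For MAFG the difference was -0.60 (log2) for MV4-11 minus Molm-14 and -0.39 for SKNO-1 minus Molm-14, and for MAFF it was -0.41 for MV4-11 minus Molm-14. MAFG was higher with RMC-4550 in all 3 treated libraries of Molm-14 and lower in all 3 of MV4-11, although the change within MV4-11 was not called. The 3 differences share the Molm-14 libraries.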

How the results depend on the processing

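The rise of MAFA in MV4-11 was called under each alternative in which it was tested, with log2 changes from 2.09 (1 CPM added) to 4.23, and the rise of MAFG in Molm-14 under each one except the 2-fold requirement. Each percentage in brackets below is the share of all tested genes called in the same comparison and setting. Members called with RMC-4550 in Molm-14 numbered 1 of 4 tested (46.7%). They were 2 under median-ratio scaling (46.8%), quantile normalization (43.3%), a mitochondrial covariate (57.5%) and only libraries under 10% mitochondrial reads (59%). In MV4-11 they numbered 1 (13.9%) and were 0 with a mean of at least 5 CPM (17.6%), where MAFA was not tested. They were 2 there under quantile normalization (13.6%) or the covariate (34.3%). For the response of MV4-11 minus that of Molm-14 they numbered 2 (19.5%). They were 1 without the low-value filter (4.35%), in a separate fit (8.54%) or with the covariate (22.2%). For SKNO-1 minus Molm-14 they numbered 1 (10.9%), then 0 without the low-value filter (2.62%). They were 2 with the covariate (28.6%) and with only libraries under 10% mitochondrial reads (30.3%). For SKNO-1 minus MV4-11 they numbered 0 (1.66%), then 1, MAFA, with no filter on low values (0.458%) or none within the line (1.49%). For the DMSO level of SKNO-1 minus MV4-11 they numbered 2 (42.5%), then 1 with no filter on low values (16.1%) or the covariate (45.6%). A 2-fold requirement gave 0 for Molm-14, for both differences of responses against Molm-14 and for the DMSO levels of MV4-11 minus Molm-14 and SKNO-1 minus MV4-11. Leaving out single libraries gave 1 to 2, 0 to 1 and 1 to 2 members for the response of MV4-11 minus Molm-14, the response of SKNO-1 minus Molm-14 and the DMSO level of SKNO-1 minus MV4-11. Shares of all genes were not computed for the 2-fold requirement or for single libraries left out. The cause of these shifts was not tested.

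Uncalled values changed sign in these cases. For NRL in Molm-14 the change was -0.18 with quantile normalization, -0.022 with the covariate and -0.0040 with only libraries under 10%, and in MV4-11 it was 0.059 with the covariate. NRL's difference MV4-11 minus Molm-14 was 0.015 with quantile normalization and 0.081 with the covariate. Its DMSO level was -0.080 for SKNO-1 minus Molm-14 with quantile normalization and 0.13 for SKNO-1 minus MV4-11 with the covariate. With quantile normalization MAFF and MAFK in SKNO-1 were at 0.011 and 0.014. For MAFK, MV4-11 minus Molm-14 was -0.084 with the covariate and -0.029 with only libraries under 10%. Single libraries left out turned MAFK in Molm-14 (-0.021 to 0.26), NRL in Molm-14 (-0.082 to 0.34) and in MV4-11 (-0.44 to 0.18), MAFG in SKNO-1 (-0.0053 to 0.086) and NRL's MV4-11 minus Molm-14 (-0.61 to 0.017).

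No regular pairing by replicate number was seen. Correlations of same-numbered libraries within a line ran from -0.40 to 0.59, and 3 of 9 were over 0.1. Of the 9 DMSO libraries, 3 matched their own number best. With 3 libraries per group this check cannot exclude that replicates shared a batch. With the replicate block, 1 member was called for MV4-11 minus Molm-14 (14.4% of all genes tested) and 0 for SKNO-1 minus Molm-14 (8.56%). The block gave 1 for the DMSO level of SKNO-1 minus MV4-11 (39.1%) and changed no other count of members. Over all genes, calls in MV4-11 numbered 2045 and were 674 in a separate fit, 5054 with the covariate and 3963 with only libraries under 10%; in SKNO-1 3969 became 8451, 7270 and 7818. For differences of responses, 2620 became 1149 in a separate fit for MV4-11 minus Molm-14, 1400 became 3687 and 3904 with the covariate and the subset for SKNO-1 minus Molm-14, and 230 became 1288 and 827 for SKNO-1 minus MV4-11. Of the genes called in SKNO-1, 40.0% were higher, and 50.4% under median-ratio scaling. At this depth MAF, and MAFA without drug, rest on 9 reads or fewer a library, which limits any fold for them.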
